A study of Mus musculus with 6 samples.

Results

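The measurements described here cover 10 mouse genes of the G1 machinery of the cell cycle: the D-type cyclins Ccnd2 and Ccnd3, the E-type cyclins Ccne1 and Ccne2, the cyclin-dependent kinases Cdk2, Cdk4 and Cdk6, and the kinase inhibitors Cdkn1a (p21), Cdkn1b (p27) and Cdkn2c (p18). They were taken as the probes whose platform symbol is one of these 10, which gave 25 of the 45281 probes on the array, and 20 of the 25 were detected on at least 1 array. For each gene the probe with the highest mean non-normalized signal over the 6 arrays stands for the gene, and every other detected probe is given beside it. Of the 10 genes, 9 had a detected probe and are among the 10687 features tested, and the single Ccne2 probe was not detected on any array.

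The samples were CD69+ and CD69- T cells of tolerant, rejecting and naive male C57BL/6 mice. Tolerant mice carried tail skin of BDF1 donors (C57BL/6 x DBA/2), had received a donor specific transfusion and the anti-CD40L antibody MR-1, and were used on day 100 after grafting. Rejecting mice carried the same kind of graft without treatment and were used on day 7, and naive mice were ungrafted. All 6 samples were made in the same way: recipient T cells from spleen and lymph nodes spent 20-21 hours with donor splenocytes from which T cells had been removed, and were then sorted by flow cytometry on CD69, an early surface marker of T cell activation. Each combination of status and fraction was measured once, on 1 Illumina MouseWG-6 array, so a status is 2 arrays and a fraction 3. Status, treatment and time after grafting cannot be told apart, and the sources used here do not give the number of mice behind a sample or any pooling of mice. P-values therefore measure how a difference varied between these single arrays, and the small number of arrays limits their precision. For CD69+ against CD69- this is how the fraction difference varied between the 3 statuses, which are not replicates of each other.

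In a resting T cell the G1 kinases are held back. On stimulation D-type cyclins accumulate and activate Cdk4 and Cdk6, which phosphorylate the retinoblastoma protein and its relatives; E2F factors are then free to switch on the genes of DNA replication, Ccne1 and Ccne2 among them, and cyclin E with Cdk2 carries the cell into S phase. The INK4 inhibitors such as Cdkn2c bind Cdk4 and Cdk6 alone, whereas Cdkn1a and Cdkn1b bind complexes of cyclin and kinase, Cdk2 complexes above all. Cdkn1b is known as the inhibitor that naive T cells hold at a high level and lose when they are stimulated, and Cdkn1a as a target of p53 that is also induced by mitogens.

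The promoters of Cdk4 and Cdk2 are shown because both genes rose in CD69+ cells and both windows carried letters of factors upstream of the G1 genes. The sequences are those of RefSeq on GRCm38.p6, 250 bases before to 50 after the transcription start. The first lies at chr10:127063285-127063584 on the plus strand and the second at chr10:128705002-128705301 on the minus strand. Capitals mark CACGTG, the E-box bound by Myc and related factors, in the first, and an E2F-type pattern in the second.
Cdk4: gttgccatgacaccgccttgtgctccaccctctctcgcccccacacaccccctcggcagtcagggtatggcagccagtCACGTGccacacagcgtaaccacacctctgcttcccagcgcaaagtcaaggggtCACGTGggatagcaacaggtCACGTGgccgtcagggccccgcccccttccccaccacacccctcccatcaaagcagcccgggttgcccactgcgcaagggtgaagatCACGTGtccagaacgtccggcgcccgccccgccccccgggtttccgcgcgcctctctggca
Cdk2: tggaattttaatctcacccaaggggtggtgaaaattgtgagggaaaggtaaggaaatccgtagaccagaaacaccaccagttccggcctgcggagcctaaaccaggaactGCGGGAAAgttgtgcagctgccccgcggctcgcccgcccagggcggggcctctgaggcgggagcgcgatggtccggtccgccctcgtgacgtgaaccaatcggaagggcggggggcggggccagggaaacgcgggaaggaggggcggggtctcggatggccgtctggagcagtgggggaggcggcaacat
The Cdk4 window held 4 copies of CACGTG, and 8 of 32851 windows (0.0244%) held as many. CACGTG was added to the search after the sequences had been seen. At least 1 copy stood in 7.15% of all windows and in 3 of the 11 windows found for 8 of the genes, those of Cdk4, Cdk6 and Cdkn2c. The Cdk2 window held TTTCCCGC on the opposite strand, so that it reads GCGGGAAA here. On both strands the E2F letters TTTCCCGC, TTTGGCGC, TTTCGCGC or TTTGCCGC occurred in 2.26% of all windows and in this 1 of the 11. The forkhead letters TGTTTAC or TGTTTGC occurred in 8.48% of all windows and in 1 of the 11, upstream of Ccnd3. These are matches of letters only.

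Levels are log2 intensities after normexp background correction and quantile normalization, and a probe was called detected on an array at a detection p under 0.01. Across the arrays 12669 to 13469 probes were detected, and the lowest level of a detected probe was 6.56 to 6.81. CD69+ was set against CD69- in 1 limma fit over the 6 arrays with status as a block, and p-values were adjusted by Benjamini-Hochberg over the 10687 features with a threshold of 0.05. The sort itself was visible in the RNA: Cd69 was at 13.31 in tolerant, 13.89 in rejecting and 13.76 in naive CD69+ cells, against 11.21, 12.65 and 12.53 in the CD69- cells of tolerant, rejecting and naive mice (difference 1.53, SE 0.21, adjusted p = 0.00343). The labels' sorting text names the same CD69+ gate for both fractions, whereas titles and design text name CD69+ and CD69-, and the 2 fractions are called here by their titles. Of 7 T cell markers 6 were measured, Cd8a being undetected, and their summed linear level was 96695 to 126364 in CD69+ against 166392 to 192014 in CD69- cells. Cd8b1 was at 14.94 to 15.36 in CD69+ cells against 15.87 to 15.97 in CD69- cells, and Cd4 at 8.71 to 8.85 against 9.04 to 9.5.

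Markers of other cells were read on the same arrays. All 7 myeloid markers were undetected. Of 8 B cell markers Cd79b and Blk were measured, Ms4a1, Cd22, Pax5 and Blnk were undetected, and the rest were not analysed here. The sum of Cd79b and Blk was 579 to 1903 in CD69+ against 677 to 1108 in CD69- cells, with the 1903 in tolerant mice. Blk was higher in CD69+ cells of each status, at 7.30 to 9.87 against 5.02 to 6.89, the 5.02 being undetected. Cd79b was lower in CD69+ cells of each status, at 8.72 to 9.92 against 9.33 to 9.95. Mzb1 and Xbp1 were measured of 5 plasma cell markers, and Jchain, Sdc1 and Prdm1 were undetected. The sum of Mzb1 and Xbp1 was 12136 to 14239 in CD69+ against 5230 to 7331 in CD69- cells. Most of it was Xbp1, at 13.48 to 13.74 in CD69+ against 12.32 to 12.82 in CD69- cells. Mzb1 alone was at 11.44 in tolerant CD69+ cells, against 8.11 in rejecting and 7.54 in naive CD69+ cells. Klrb1c and Klre1 were measured of 4 NK cell markers, and Ncr1 and Klrk1 were undetected. The sum of Klrb1c and Klre1 was 213 to 506 in CD69+ against 118 to 253 in CD69- cells, levels below detection included. Neither gene was detected in naive or rejecting CD69- cells. The 3 measured globin genes fell in CD69+ cells, with a sum of 1258 in tolerant, 5171 in rejecting and 5397 in naive CD69+ cells, against 2697, 29150 and 37395 in CD69- cells of tolerant, rejecting and naive mice. The part of such cells in the results on the G1 genes was not tested. In bulk RNA of this kind, fewer cells of a type and less RNA per cell cannot be told apart.

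**Figure D1:**
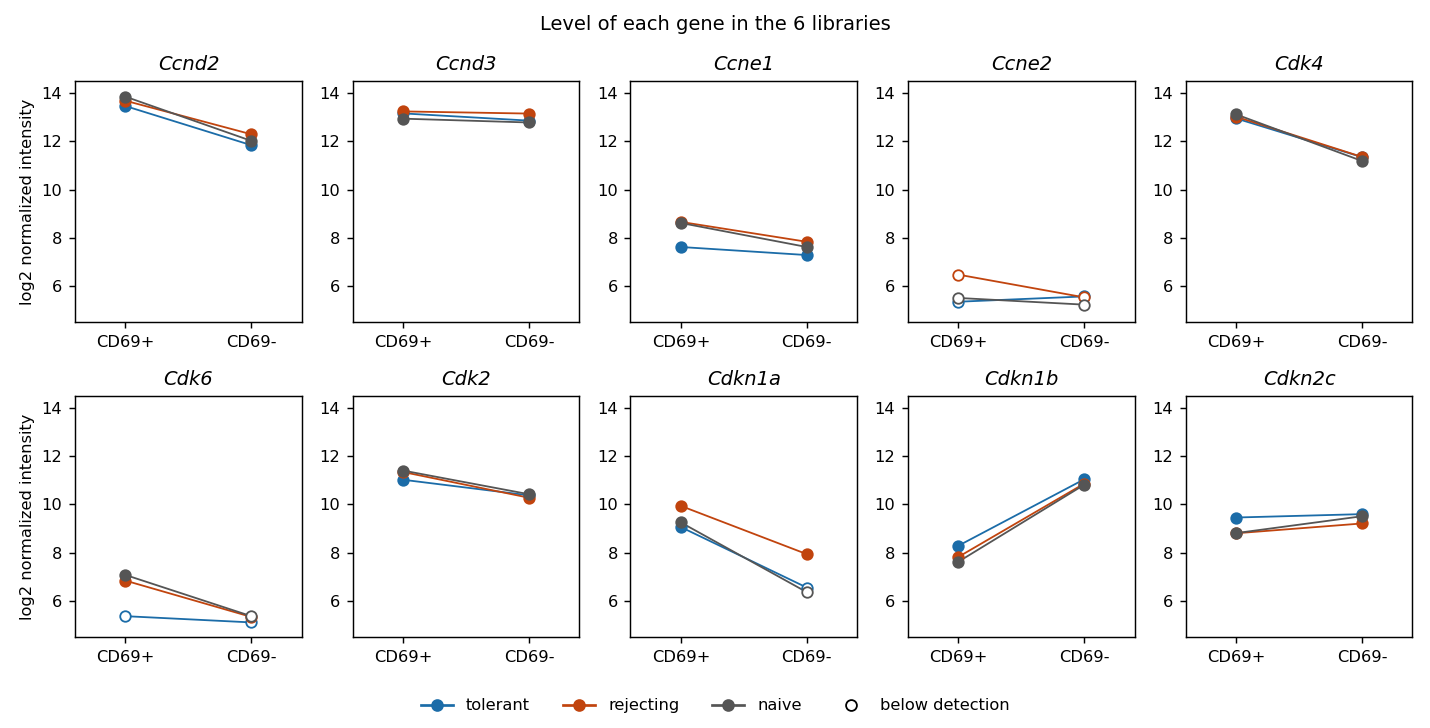
Level of the 10 genes in the 6 libraries. The vertical axis is the log2 normalized intensity, CD69+ stands left of CD69-, lines join the 2 fractions of a status, and open points are below detection. Cdkn1b is the gene with the steepest line upwards to CD69-, and Ccne2 is below detection in every library.

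CD69+ cells differed from CD69- cells in 6 of the 8 genes that were detected in both fractions. Ccnd2, Cdk4, Cdk2, Ccne1 and the inhibitor Cdkn1a rose, the inhibitor Cdkn1b fell 7.97-fold, and Ccnd3 and Cdkn2c did not pass the test. Cdk6, detected in 2 CD69+ libraries alone, is described apart, because a gene that enters the fit through 1 fraction had to differ in that direction. Of the 9150 features detected in both fractions 62.1% passed, and of all 10687 features 62.7%, 29.6% higher and 33.1% lower in CD69+ cells, so passing does not by itself set a gene apart. The median difference of the 8 genes was 0.81 on the log2 scale, against -0.08 over all features detected in both fractions. With array medians centred in place of quantiles, the median over all 10687 features was 0.09, against -0.05, and the split of calls moved to 3626 higher of 6246 (58.1%), against 3164 of 6697 (47.2%). Of the 7 genes detected on all 6 arrays, the levels of the 2 fractions did not overlap for 4, namely Ccnd2, Cdk2, Cdk4 and Cdkn1b, and overlapped for Ccnd3, Ccne1 and Cdkn2c. Of all 8080 features detected on all 6 arrays 70.3% did not overlap, so the members do not stand out in this.

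Among the D-type cyclins, which carry the growth signal to Cdk4 and Cdk6, Ccnd2 rose and Ccnd3 did not pass. Ccnd2 was at 13.46 in tolerant, 13.68 in rejecting and 13.85 in naive CD69+ cells, against 11.84, 12.29 and 12.02 in the matching CD69- cells. Every CD69+ library was above every CD69- library. The fitted difference was 1.62 (SE 0.13, 3.06-fold, 95% interval 1.27 to 1.96, adjusted p = 0.00114). Ccnd3 was at 13.16, 13.24 and 12.94 in tolerant, rejecting and naive CD69+ cells, against 12.86, 13.15 and 12.78 in CD69- cells. It was high in all 6 libraries, the groups overlapped, and the difference of 0.18 (SE 0.11, 95% interval -0.11 to 0.47, adjusted p = 0.205) did not pass. With array medians centred it was 0.43 and passed (adjusted p = 0.0387). Within a status the difference was 1.39 to 1.83 for Ccnd2 and 0.09 to 0.30 for Ccnd3, ranges that do not meet, although the difference between the 2 genes was not tested.

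Cdk4, the kinase partner of the D cyclins, had the largest fitted difference of the 3 kinases. Its level was 12.95 in tolerant, 13.02 in rejecting and 13.12 in naive CD69+ cells, against 11.35, 11.36 and 11.19 in CD69- cells. The 3 libraries of a fraction lay close together, with means of 13.03 ± 0.08 in CD69+ and 11.30 ± 0.10 in CD69- cells (SD, n = 3 each), and the difference was 1.73 (SE 0.12, 3.33-fold, adjusted p = 0.000981). Cdk6, the other kinase of the D cyclins, was near the detection limit: 5.37 and undetected in tolerant, 6.85 in rejecting and 7.08 in naive CD69+ cells, against 5.11, 5.34 and 5.37 in CD69- cells, all undetected. It passed the detection filter through 2 CD69+ libraries alone. The fitted difference of 1.16 (SE 0.31, adjusted p = 0.0258) rests on levels below detection in 4 of the 6 libraries, so Cdk6 is not counted among the genes that rose. Taken per status as a lower bound, Cdk6 was at least 1.44-fold higher in naive and at least 1.02-fold higher in rejecting CD69+ cells than in their CD69- cells, and tolerant mice give no fold because both fractions were undetected.

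Cyclin E and Cdk2 act after the D cyclins. Ccne1 was at 7.62 in tolerant, 8.66 in rejecting and 8.62 in naive CD69+ cells, against 7.29, 7.84 and 7.62 in CD69- cells. It was higher in CD69+ than in CD69- cells of each status, but the tolerant CD69+ library lay at the level of the naive CD69- library, so the groups overlapped. The difference was 0.72 (SE 0.16, 1.64-fold, 95% interval 0.29 to 1.14, adjusted p = 0.0157). It was 0.58 without the naive pair (adjusted p = 0.0699), 0.66 without the rejecting pair (adjusted p = 0.0821), and the call was lost in both. Cdk2 was at 11.03 in tolerant, 11.35 in rejecting and 11.41 in naive CD69+ cells, against 10.38, 10.28 and 10.42 in CD69- cells. No CD69+ library reached down to the CD69- libraries, and the difference was 0.90 (SE 0.13, 1.86-fold, adjusted p = 0.00404). Ccne2 read 5.36, 6.48 and 5.51 in tolerant, rejecting and naive CD69+ cells, against 5.57, 5.53 and 5.23 in CD69- cells. All 6 values were below detection and carry no order.

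Of the inhibitors Cdkn1b fell, Cdkn1a rose, and the Cdkn2c probes did not all point the same way. Cdkn1b, the inhibitor of Cdk2 complexes, was at 8.29 in tolerant, 7.83 in rejecting and 7.63 in naive CD69+ cells, against 11.05, 10.87 and 10.82 in CD69- cells. Each CD69- library was above each CD69+ library by more than the whole range within a fraction. The difference was -2.99 (SE 0.13, 95% interval -3.34 to -2.65, adjusted p = 0.000691), the largest in size of the 9 genes, and within a status the level was 6.75-fold lower in tolerant, 8.21-fold lower in rejecting and 9.14-fold lower in naive CD69+ cells than in their CD69- cells.

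Cdkn1a, an inhibitor of the same family as Cdkn1b, moved the opposite way. It was at 9.06 in tolerant, 9.94 in rejecting and 9.26 in naive CD69+ cells, against 6.56, 7.94 and 6.37 in CD69- cells, where only the rejecting library was above detection. The rejecting library was the highest in each fraction, and the 2 fractions did not overlap. The fitted difference was 2.46 (SE 0.20, 95% interval 1.96 to 2.97, adjusted p = 0.00110). Per status it was 4.0-fold higher in rejecting CD69+ cells than in rejecting CD69- cells, at least 5.25-fold higher in tolerant and at least 6.50-fold higher in naive mice, the last 2 being lower bounds because the CD69- library was undetected. These bounds hold for background-corrected levels. With no background correction the fitted difference was 1.60.

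Cdkn2c, the INK4 inhibitor, was at 9.46 in tolerant, 8.81 in rejecting and 8.81 in naive CD69+ cells, against 9.60, 9.21 and 9.51 in CD69- cells. The tolerant CD69+ library lay among the CD69- libraries. The difference of -0.41 (SE 0.15, 95% interval -0.80 to -0.03, adjusted p = 0.0586) did not pass, and 6 alternative settings put it past the threshold, among them the fit without the tolerant pair (-0.55, adjusted p = 0.0186).

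**Figure D2:**
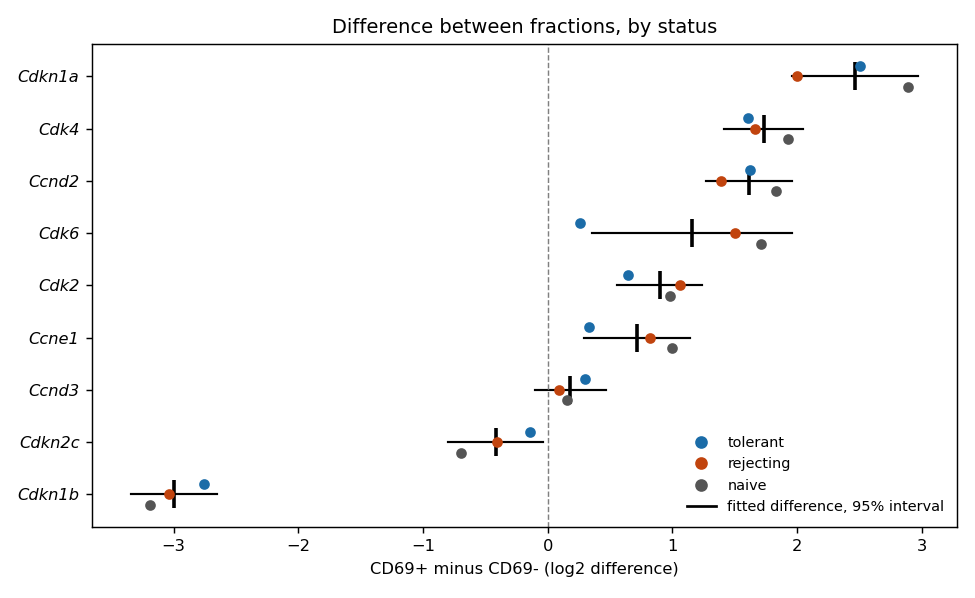
Difference between the fractions for the 9 measured genes. The horizontal axis is CD69+ minus CD69- on the log2 scale, points are the 3 statuses, and the bar is the fitted difference with its 95% interval. Cdkn1a lies at 2.46 and Cdkn1b at -2.99, and the intervals of Ccnd3 and Cdkn2c reach near or past 0.

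Size of change by status was compared over the 7 genes detected on all 6 arrays. The naive pair gave the largest difference in 5 of them, Ccnd2, Ccne1, Cdk4, Cdkn1b and Cdkn2c, and in 50.2% of all 8080 features detected on all 6 arrays. The tolerant pair gave the smallest in 5, Ccne1, Cdk2, Cdk4, Cdkn1b and Cdkn2c, and in 55.3% of those features. For Cdk4 the difference was 1.60 in tolerant, 1.67 in rejecting and 1.93 in naive mice. For Cdk2 it was 0.65 in tolerant, 1.07 in rejecting and 0.98 in naive mice. With 1 array per combination, whether the change between fractions differed between statuses could not be tested.

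Other probes of the same genes were read in the same way, over all 15298 detected probes. They moved with the chosen probe for Cdk2, Cdk4 and Cdkn1a, and split for Ccnd2 and Cdkn2c. The 3 other Cdk2 probes gave differences of 1.08, 1.10 and 1.17 (adjusted p = 0.00185, 0.00223 and 0.00964), and the second Cdk4 probe gave 1.78 (adjusted p = 0.00117). The other Cdkn1a probes gave 1.85 (adjusted p = 0.00130) and 2.15, the second undetected in every CD69- library and at least 1.77-fold higher in CD69+ cells.

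Ccnd2 probe ILMN_2700168 gave 1.70 (SE 0.13, adjusted p = 0.000822), close to the chosen ILMN_2700166. A dimmer probe of the gene, ILMN_1225932, was at 9.19, 9.0 and 9.31 in tolerant, rejecting and naive CD69+ cells, against 9.25, 9.61 and 9.43 in CD69- cells (difference -0.26, SE 0.16, adjusted p = 0.192). It was lower in CD69+ than in CD69- cells of each status, the opposite direction to the brighter pair, and did not pass. The second Ccnd3 probe gave -0.06 (SE 0.16, adjusted p = 0.766), and like the chosen one it did not pass.

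The 3 Cdkn2c probes pointed in both directions. ILMN_1215651 was at 8.12 in tolerant, 7.34 in rejecting and 7.67 in naive CD69+ cells, against 9.06, 8.46 and 8.82 in CD69- cells (difference -1.08, SE 0.12, adjusted p = 0.00152). ILMN_2420939 was at 7.06, 6.78 and 6.84 in CD69+ cells of tolerant, rejecting and naive mice and undetected in all CD69- cells (at least 1.16-fold higher). It entered the fit through CD69+ cells alone and could differ in that direction only, so its difference of 1.08 is not counted as a call. The probes detected on all 6 arrays, ILMN_1215651 and the brightest, ILMN_1228366, were both lower in CD69+ cells. Of these only ILMN_1215651 passed, and ILMN_1228366 lay at -0.41. Which transcripts each probe reads was not analysed here, so no direction is given for Cdkn2c as a gene. For Cdkn1b the 2 other probes were undetected on all arrays, so its change rests on 1 probe, as do those of Ccne1 and Cdk6.

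**Figure D3:**
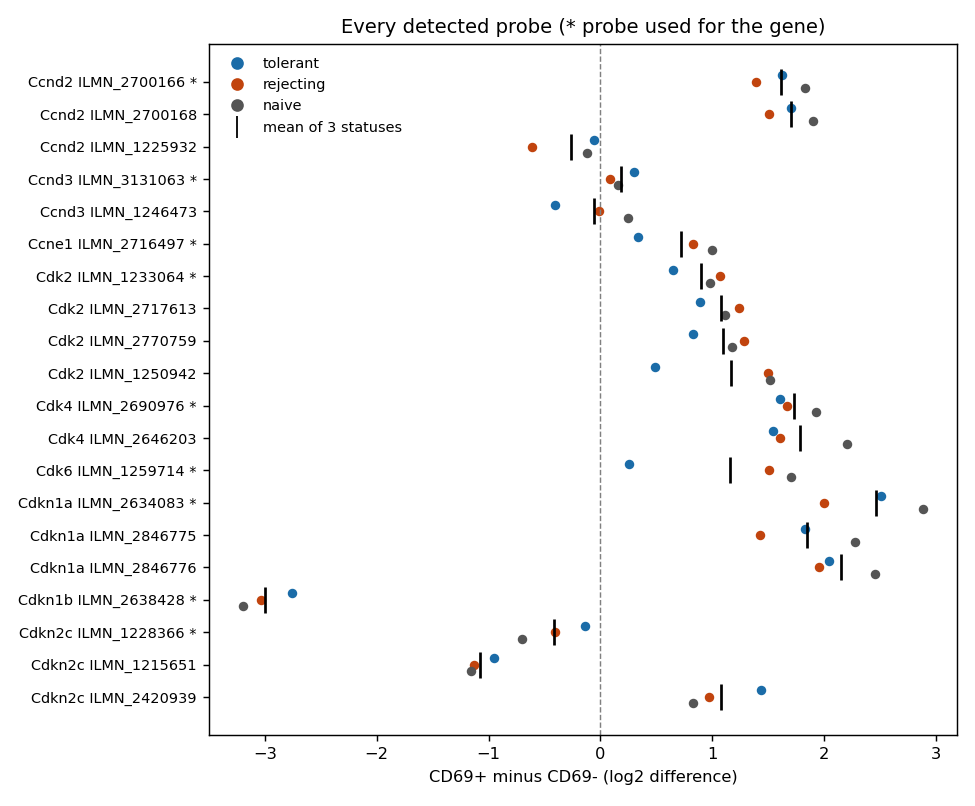
Every detected probe of the 9 genes. The horizontal axis is CD69+ minus CD69- on the log2 scale, points are the 3 statuses, the bar is their mean, and an asterisk marks the probe used for the gene. The Cdk2, Cdk4 and Cdkn1a probes lie on the side of the chosen probe, and the 3 Cdkn2c probes lie at -1.08, -0.41 and 1.08.

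The partners and targets of these genes were read from lists chosen with earlier results of these data known, and the genes named are the 3 largest rises and falls of each list among those that passed. Between CD69+ and CD69- cells, counts and medians of a list cover its genes detected in both fractions. A gene detected in 1 fraction alone is named as such, because it could differ in 1 direction only. Of all features detected in both fractions 62.1% passed, with a median of -0.08, so passing does not by itself set a list apart. Of 13 genes of the retinoblastoma and E2F families 10 were detected in both fractions, 5 rose, 3 fell and 2 did not pass. E2f1, an activating E2F, was at 9.35, 10.49 and 10.27 in tolerant, rejecting and naive CD69+ cells, against 6.58, 6.72 and 6.80 in CD69- cells, where only the naive library was above detection (difference 3.33, adjusted p = 0.000896). Its binding partner Tfdp1 rose by 3.33 (10.1-fold, adjusted p = 0.000660) and E2f3 by 0.93. Rbl1, a relative of the retinoblastoma protein, fell by 1.23 (adjusted p = 0.00146), the second partner Tfdp2 by 1.21, and Rbl2, detected in CD69- cells alone, was at least 1.59-fold lower. The median of the list was 0.55.

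Of 23 listed genes that E2F factors are known to switch on for S phase, 12 were detected in both fractions, 11 rose, 0 fell and 1 did not pass. Their median was 1.56, against -0.08 over all features detected in both fractions. A further 6 were detected in CD69+ cells alone, Mcm10 and Tk1 among them. Mcm10, which helps open replication origins, was at 9.23, 10.66 and 10.48 in tolerant, rejecting and naive CD69+ cells and undetected in CD69- cells (at least 10.9-fold higher). Uhrf1, which maintains DNA methylation at replication forks, was at 10.90, 11.77 and 11.63 in tolerant, rejecting and naive CD69+ cells, against 6.43, 7.72 and 7.46 in CD69- cells, the tolerant CD69- library being undetected, and rose (fitted difference 4.23, adjusted p = 0.000490). The thymidine kinase Tk1 was at least 4.20-fold higher. Ccna2, Pcna, Chek1 and Slbp were undetected, and the rest were not analysed here.

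Other G1 genes moved both ways. Of 15 listed, 8 were detected in both fractions, where 62.1% of all features passed. Of these 8, 4 rose, 2 fell and 2 did not pass, with a median of 0.45. A further 3 were detected in CD69+ cells alone and Cdk7 in CD69- cells alone. The phosphatase gene Cdc25a, which activates Cdk2, rose by 1.32 (2.50-fold, adjusted p = 0.00135), Cdk8 by 1.12 and Ccnh, the cyclin of the kinase that activates other Cdks, by 0.69. Cdkn2d (p19), an INK4 inhibitor like Cdkn2c, was at 9.74, 9.73 and 8.98 in tolerant, rejecting and naive CD69+ cells, against 11.43, 12.01 and 11.83 in CD69- cells. It fell 4.83-fold (adjusted p = 0.00174), with no overlap between fractions. Cdc25b fell by 2.06 and was detected in 1 of the 3 CD69+ libraries, and Cdk7 was at least 1.13-fold lower.

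Genes for the turnover of p27 and cyclins moved both ways, as all features did. Of 18 listed, 12 were detected in both fractions, 5 rose, 2 fell and 5 did not pass, with a median of -0.02. Among all features detected in both fractions 62.1% passed, with a median of -0.08. Uhmk1 and Skp1 were detected in CD69+ cells alone. Uhmk1, a kinase that marks p27 for export from the nucleus, was at least 1.42-fold higher, and Cops5, a subunit of the signalosome, rose by 1.03. Skp1, a subunit of the ligase that marks p27 for destruction, was at least 1.66-fold higher as a mean over the statuses. Its tolerant CD69+ library, at 6.68, lay below the undetected 6.71 of rejecting CD69- cells, so the fractions overlapped. The deubiquitinase gene Usp28 fell by 2.41 (5.30-fold, adjusted p = 0.000862) and Ambra1, the receptor of a ligase for D cyclins, by 0.40. Skp2 and Cks1b, which recognise p27 for the Skp1 ligase, were undetected, as were Cks2 and Dtl.

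Factors upstream of Cdkn1a, Cdkn1b and the D cyclins mostly fell. Of 18 listed, 12 were detected in both fractions, 3 rose, 8 fell and 1 did not pass, with a median of -0.87. Myc, which induces Ccnd2 and Cdk4, was at 10.33, 10.82 and 11.15 in tolerant, rejecting and naive CD69+ cells, against 8.17, 8.51 and 8.11 in CD69- cells (difference 2.50, 5.67-fold, adjusted p = 0.00112). Stat5a, which carries the interleukin-2 signal, rose by 1.47 and Tob2 by 0.38. Klf2, a factor of T cell quiescence, fell by 2.59 (6.04-fold, adjusted p = 0.00194), the antiproliferative gene Tob1 by 2.44 (5.44-fold, adjusted p = 0.000896) and the Myc antagonist Mxd4 by 1.09. Trp53 was not analysed here.

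Targets of p53 detected in both fractions mostly fell. Of 18 listed, 12 were detected in both fractions, 1 rose, 8 fell and 3 did not pass, with a median of -0.95. A further 4, Phlda3, Plk2, Sesn2 and Aen, were detected in CD69+ cells alone. Over all 16 measured, 5 rose, 8 fell and 3 did not pass, and 4 of the 5 rises were these genes detected in CD69+ cells alone. The median over the 16, levels below detection taken as measured, was -0.17, against -0.05 over all features. Cdkn1a, a p53 target outside this list, rose. Phlda3, which dampens Akt, was at least 3.14-fold higher, Gadd45b rose by 2.01 and the kinase Plk2 was at least 1.43-fold higher. Bbc3 (PUMA), which promotes apoptosis, fell by 2.49 (5.61-fold, adjusted p = 0.000896), Gadd45a by 1.92, and Ccng2, detected in 2 of the 3 CD69+ libraries, by 2.16. Perp was undetected and Bax was not analysed here.

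**Figure D4:**
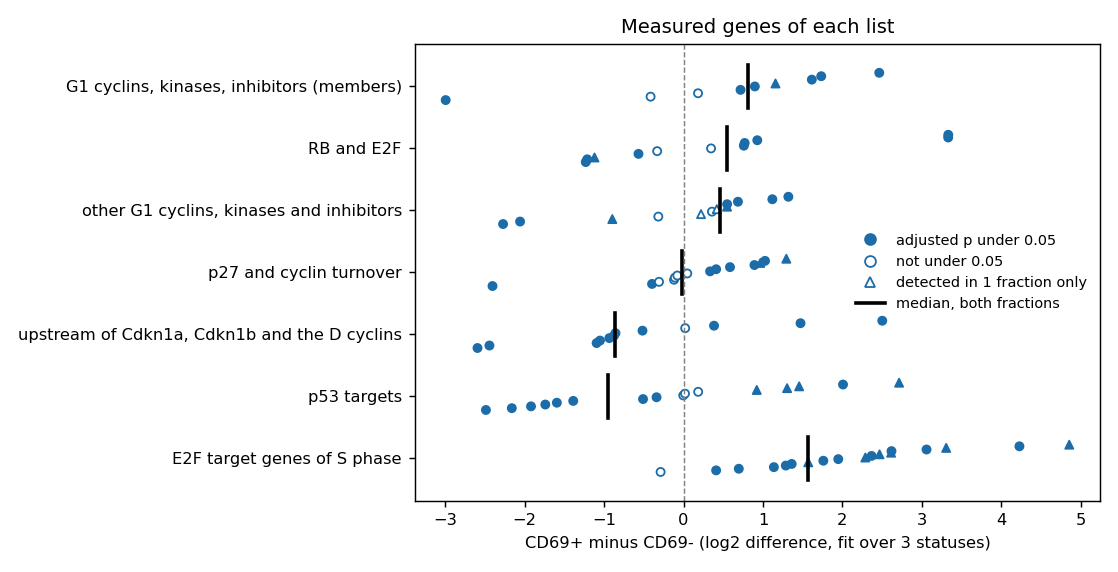
Measured genes of each list. The horizontal axis is the fitted CD69+ minus CD69- difference on the log2 scale, filled points passed the test, open points did not, triangles were detected in 1 fraction only, and the bar is the median over genes detected in both. The E2F target genes of S phase have a median of 1.56, the upstream factors one of -0.87 and the p53 targets one of -0.95.

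Over the 6 arrays some genes ran closely with these 3 members, compared with the 4235 named features whose level spanned at least 1 on the log2 scale. The nearest to Cdkn1b by Pearson's r were Acot13 (0.9994), Klk8 (0.9994) and Tmub2 (0.9993). The nearest to Ccnd2 were Nat10 (0.9991), Mcm2 (0.9988) and Ung (0.9988), and the nearest to Cdk4 were Slc16a6 (0.9993), Mrpl42 (0.9993) and Ddx21 (0.9991). These are descriptions over 6 points that share their libraries and the split into 2 fractions.

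Between statuses none of the 9 genes passed the test over both fractions, and very few features did: 0.00936% for tolerant against naive, 0% for rejecting against naive and 0.0187% for rejecting against tolerant. In those comparisons limma gave 1290, 507 and 1524 of the 10687 features an unadjusted p under 0.05. Of the 9 members 2, 1 and 3 had such an unadjusted p, Ccne1 and Cdkn1b in the first comparison, Cdkn1a in the second, and Ccne1, Cdkn1a and Cdkn2c in the last. Of the 83 measured partner and target genes named in the lists, limma called 0 in each comparison, with 20, 0 and 20 at an unadjusted p under 0.05. These fits had 2 arrays a side, and comparisons with a status in common share its arrays. The 2 arrays of a status are its CD69+ and CD69- libraries, not replicates. Their error is how status differences varied between the fractions, so a difference confined to 1 fraction raises it. Variation between mice was not measured.

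Among the members the fitted differences between statuses were largest for Cdkn1a, Cdk6 and Ccne1. For Cdkn1a, an inhibitor of cyclin and kinase complexes, the difference was 1.13 (SE 0.24, adjusted p = 0.969) for rejecting against naive mice and also 1.13 (SE 0.24, adjusted p = 0.229) for rejecting against tolerant mice. Its level was higher in the rejecting library of both fractions, 9.94 against 9.06 in tolerant and 9.26 in naive CD69+ cells, and 7.94 against undetected in both other CD69- libraries. The other Cdkn1a probes gave 0.93 and 0.53 for rejecting against naive, neither passing. The Ccne1 difference was -0.66 (SE 0.20, adjusted p = 0.404) for tolerant against naive mice and 0.80 (SE 0.20, adjusted p = 0.256) for rejecting against tolerant mice. For Cdk6 it was -0.98 (SE 0.38, adjusted p = 0.404) for tolerant against naive mice, with 4 of the 6 libraries below detection. For Cdkn1b it was 0.44 (SE 0.16, adjusted p = 0.404) for tolerant against naive mice. The inhibitor Cdkn2c gave 0.37 (SE 0.18, adjusted p = 0.430) for tolerant against naive mice and -0.52 (SE 0.18, adjusted p = 0.324) for rejecting against tolerant mice. Its other probes gave -0.69 and -0.04 for rejecting against tolerant mice, neither passing, the second undetected in all CD69- cells.

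Within the CD69+ fraction, pairs of single libraries were compared as values without a test, and a difference was counted where it reached 1.5-fold and the brighter library had a signal of 500 or above before normalization, the sizes the study used for its own candidate genes. Tolerant against naive CD69+ cells, 3 of the 9 members were counted, against 15.2% of all features. Ccne1 was 1.99-fold lower, Cdkn1b 1.58-fold higher and Cdkn2c 1.56-fold higher in tolerant CD69+ cells. On the authors' value table, which has no background subtracted, Cdkn1b (0.42 on the log2 scale) and Cdkn2c (0.52) were under 1.5-fold. The other Cdkn2c probes were at 8.12 and 7.06 in tolerant against 7.67 and 6.84 in naive CD69+ cells, both under 1.5-fold. Cdk6 was undetected in tolerant CD69+ cells and at least 1.43-fold lower there than in naive CD69+ cells, below the signal minimum.

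Rejecting against naive CD69+ cells, 1 of the 9 was counted, Cdkn1a at 1.61-fold higher, against 2.05% of all features. On the authors' value table it was 0.58 on the log2 scale, under 1.5-fold. The other Cdkn1a probes were at 8.86 and 7.80 in rejecting against 8.35 and 7.52 in naive CD69+ cells, both under 1.5-fold. Rejecting against tolerant CD69+ cells, 3 of the 9 were counted, against 11.3% of all features: Ccne1 was 2.06-fold higher, Cdkn1a 1.84-fold higher and Cdkn2c 1.57-fold lower in rejecting CD69+ cells. On the authors' value table Cdkn2c (-0.52 on the log2 scale) was under 1.5-fold. The other Cdkn1a probes were at 8.86 and 7.80 in rejecting against 8.29 and 7.20 in tolerant CD69+ cells. Those of Cdkn2c were at 7.34 and 6.78 against 8.12 and 7.06. None of these probes met both the fold and the signal condition. The comparisons of tolerant with naive and of rejecting with tolerant cells share the tolerant library.

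In the CD69- fraction none of the 9 was counted. The background was 2.23% for tolerant against naive, 1.93% for rejecting against naive and 4.96% for rejecting against tolerant CD69- cells. Cdkn1a was at least 2.61-fold higher in rejecting than in naive CD69- cells and at least 2.41-fold higher than in tolerant CD69- cells, and was left out of the count because its signal of 342 is below the minimum. The 18 measured S phase genes that follow E2F include the 6 detected in CD69+ cells alone. Over all 18, levels below detection taken as measured, the median over both fractions was -0.45 for tolerant against naive mice. It was 0.10 for rejecting against naive and 0.38 for rejecting against tolerant mice. Over all 10687 features these medians were 0.007, -0.006 and -0.012. No gene of that list passed the test. The tolerant CD69+ library also had the highest B cell sum and Mzb1 level and the lowest globin sum of the 3 CD69+ libraries, values given above whose part was not tested.

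**Figure D5:**
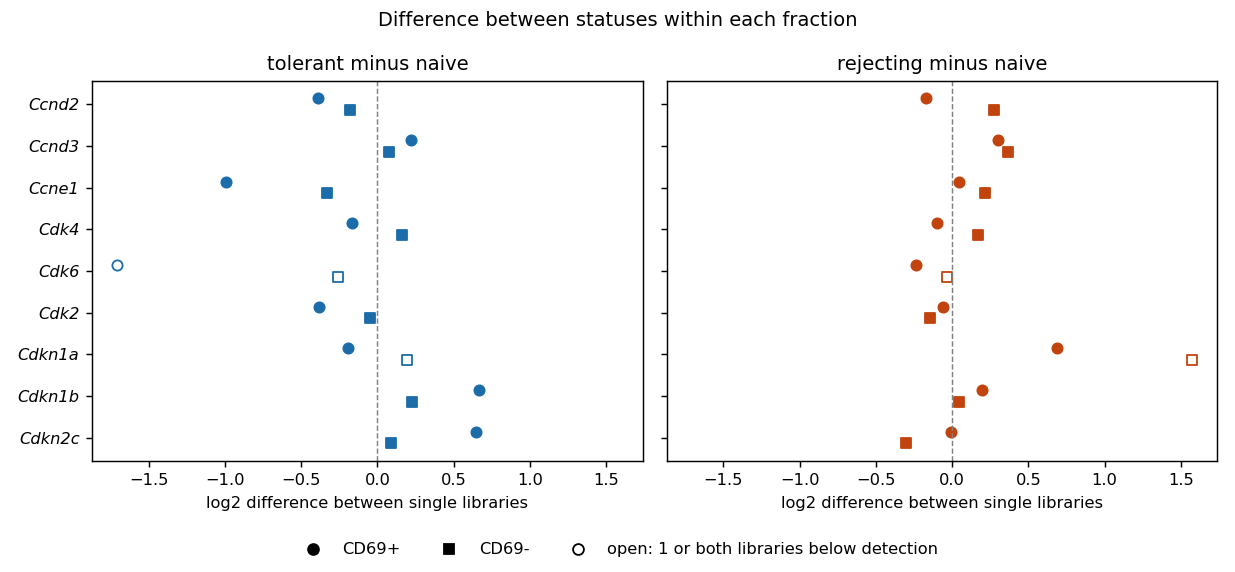
Difference between statuses within each fraction for the 9 genes. The horizontal axes are tolerant minus naive and rejecting minus naive on the log2 scale, circles are CD69+ and squares CD69- libraries, and open points have at least 1 library below detection. In tolerant mice Ccne1 lies at -1.0 and Cdkn1b at 0.66 in the CD69+ fraction, and in rejecting mice Cdkn1a lies at 0.69.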

How the data were processed

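Each of 6 sorted T cell samples was measured on 1 single-colour array, and groups were taken from the sample titles. Per the file headers, the authors' non-normalized table holds a linear signal intensity for each of 45281 probes, not background subtracted. The authors deposited a detection p-value beside each intensity. GenomeStudio 2009.2 is named in the submitters' processing notes. A second table of the authors, the value table, holds deposited linear intensities with a median of 168.3 in each column, against 161.5 to 174.2 in the non-normalized table. Its scale is linear and no ratio is involved, and how it was normalized is not stated.

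The neqc steps of limma 3.58.1 (R 4.3.3) gave log2 levels: normexp correction with background parameters estimated through the detection p-values, an offset of 16, then quantile normalization. Features detected (p under 0.01) on at least 1 of 6 arrays were kept, 1 probe per symbol, and probes with no single symbol stood alone, which gave 8347 named and 2340 unnamed features. Of all probes 34885 had 1 symbol, 18 several and 10378 none listed, and 34807 matched the RefSeq gene table of GRCm38.p6, used for names. The fit was additive in status and fraction with 2 residual degrees of freedom, and tests were 2-sided. The fractions are paired by design, both coming from the same status. Where every library of the lower side was undetected, a fold is a lower bound: the lower side is set to the dimmest detected probe of its array, or to the gene's own value where that is above it.

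The members and lists were chosen with earlier results of these data known. The genes named are all 10 members and, from each list, the 3 largest rises and falls past the threshold. The fit was run on simulated data with known changes. These had far fewer changed features than passed here and a common spread for all, so the run checks the computation only. No batch was tested, because the sources used here give neither slide nor hybridization date. Alternatives were the authors' value table (floor 16), no background correction, array medians centred, an offset of 50, no detection filter, detection on all 6 arrays, every probe alone, no block, each pair or fraction left out, and an intensity trend with robust variance.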

Additional observations from a re-analysis of the deposited data

Results flagged for a closer look

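For 5 values the status difference had one sign in CD69+ and the other in CD69- cells, each from single libraries, and none of these differences between fractions was tested. Cdk4 for tolerant minus naive was -0.17 in CD69+ and 0.16 in CD69- cells, -0.33 apart. Cdkn1a for tolerant minus naive was -0.19 in CD69+ and 0.19 in CD69- cells, -0.38 apart, with both CD69- libraries undetected. Ccnd2 for rejecting minus naive was -0.17 in CD69+ and 0.27 in CD69- cells, -0.44 apart. Cdk4 for rejecting minus naive was -0.10 in CD69+ and 0.17 in CD69- cells, -0.27 apart. Cdk2 for rejecting minus tolerant was 0.32 in CD69+ and -0.10 in CD69- cells, 0.42 apart.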

How the results depend on the processing

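Between the fractions, Ccnd2, Cdk2, Cdk4 and Cdkn1b kept direction and call in all 12 alternatives and Cdkn1a in all 11 that measured it. Cdkn1b lay at -3.12 to -2.43, Cdk4 at 1.63 to 1.97 and Cdkn1a at 1.60 to 2.70. Without the replicate block (status), 6447 features passed, against 6697 with it, and Ccne1 (adjusted p = 0.0858) and Cdk6 (0.0572) lost their call. Cdk6 also lost it without the naive pair (0.88, 0.0910) and without the rejecting pair (0.98, 0.0903). Leaving out 1 status pair gave 4596 (without rejecting) to 7183 (without tolerant) features. Cdkn2c passed on the authors' value table (-0.33, 0.0418), with no background correction, with offset 50 (-0.39, 0.0494), with detection on all 6 arrays (0.0377) and with trend and robust variance (0.0429).

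Between statuses the counts were small throughout. Tolerant against naive gave 0 with detection on all 6 arrays, 0 without the replicate block and 6 with trend and robust variance, against 1. Rejecting against tolerant gave 23 on the authors' value table, 23 with no background correction, 13 with offset 50, 14 with detection on all 6 arrays, 0 without the replicate block and 87 with trend and robust variance, against 2. No member passed, the lowest adjusted p being 0.101. Signs turned with array medians centred for Cdkn1a tolerant against naive (0.0637), Ccnd2 rejecting against naive (-0.0567, against 0.05) and Cdk4 rejecting against naive (-0.0705, against 0.04). Single-library counts were 138 on the authors' value table and 138 with no background correction for rejecting against naive CD69+ cells, against 219, and 370 with medians centred for rejecting against naive CD69- cells, against 206. The cause of these changes was not tested. With medians centred the share of higher calls was 72.1% against 58.6% for tolerant against naive CD69+ cells, 17.0% against 30.7% for tolerant against naive, 18.4% against 63.1% for rejecting against naive and 38.9% against 54.5% for rejecting against tolerant CD69- cells. Status comparisons with 1 fraction left out carry no test. Levels below detection limit Ccne2, Cdk6 and Cdkn1a.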
